A study of Homo sapiens with 18 samples.

Results

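The genes of MHC class I antigen presentation were followed across 5 groups of MDA-MB-231 cells, a human triple-negative breast cancer line. The set was named by gene and holds 9 of the 62703 gene identifiers in the files: the heavy chains HLA-B, HLA-C and HLA-E, the light chain B2M, the peptide transporter subunits TAP1 and TAP2, the loading factor TAPBP, the immunoproteasome subunit PSMB9 and the transactivator NLRC5. All 9 had counts in every library and passed the filter on low counts in every comparison. On chromosome 6 lie 7 of them, while B2M lies on chromosome 15 and NLRC5 on chromosome 16.

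MHC class I molecules carry peptides cut from the proteins of the cell to its surface, where cytotoxic T cells and natural killer cells inspect them. The proteasome cuts the peptides, the TAP transporter moves them into the endoplasmic reticulum, and TAPBP (tapasin) bridges the transporter to the waiting complex of heavy chain and beta-2 microglobulin. NLRC5 and interferon signalling raise transcription of the whole pathway, and many tumours hold it at a low level.

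Polyadenylated RNA was sequenced in 10 libraries, 2 per group. In the knockdown experiment, lentivirus delivered short hairpin RNA over 24 h, either a control sequence (control shRNA) or one that targets EZH2 (shEZH2) or E2F1 (shE2F1), and puromycin at 2 µg/ml followed for 72 h. In the drug experiment, cells grew for 72 h in DMSO or in GSK126 at 1 µM, which blocks the enzyme site of EZH2. The study compared these groups to separate what EZH2 does with E2F1 from what it does as the histone methyltransferase of the PRC2 complex. Each group rests on 1 parental line, and the labels name 1 hairpin treatment per target. Nothing in the labels says that replicates were separate cultures, so that p-values measure the spread between these libraries only.

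Total expected counts ran from 13198932 in shEZH2 replicate 1 to 20055550 in DMSO replicate 1. EZH2 stood at 153 and 181 CPM (counts scaled to library size with TMM factors) in control shRNA and at 52.6 and 44.8 CPM in shEZH2, and E2F1 at 143 and 138 CPM in control shRNA and at 26 and 22.5 CPM in shE2F1. E2F1 was also lower in shEZH2, at 62.4 and 32.3 CPM, and EZH2 was lower in shE2F1, at 121 and 137 CPM. Leukocytes, which hold much class I RNA, left little trace: between 3 and 5 of their 9 markers had any count per group, their summed level lay between 0.61 and 2.26 TPM in every library, and CD3E, MS4A1 and NKG7 were at 0 in all 10 libraries. The mesenchymal and luminal markers of the line, VIM, CD44, KRT8 and KRT18, were present and ESR1 and PGR were at or near 0. Their summed level with ERBB2, in TPM, was lower in shEZH2 (3924 and 3930) than in control shRNA (5609 and 5833). These markers did not fall alike. Mean TPM went from 2783 in control shRNA to 1271 in shEZH2 for VIM, from 1360 to 1162 for KRT8 and from 1100 to 964 for KRT18. CD44 was at 447 in control shRNA and at 505 in shEZH2. In such bulk samples, fewer cells with a transcript and less of it per cell cannot be told apart. Replicate 1 of both drug groups stood apart in fragment length, where the annotated length of a transcript exceeded its effective length by 204.8 and 204 bases (median over genes), against 163.1 to 178.8 bases in the other 8 libraries.

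The promoters of these genes carry short elements through which interferon, NF-kappa B and the NLRC5 enhanceosome act. RefSeq promoters (GRCh38.p14, 250 bases before to 50 bases after a start) were at hand for 7 of the 9 genes, with 2 starts for TAP1, and for neither HLA-E nor NLRC5. The windows of 30 bases below show the elements that distinguish the genes, each 5′ to 3′ on the strand of its gene, with the matched motif in capitals or, for HLA-C at the kappa B position, the stretch closest to the HLA-B element. They are reference sequence, not the alleles of the cell line.
HLA-B kappa B, chr6:31357336-31357365, minus strand: cgcagcgttGGGGATTCCCCactcccctga
HLA-C at the same place, chr6:31272245-31272274, minus strand: cgccgcgttGGGGATTCTCCactcccctga
HLA-B X2, chr6:31357268-31357297, minus strand: ccaggatactcgTGACGCgtccccacttcc
HLA-C X2, chr6:31272180-31272209, minus strand: cctgaatactcaTGACGCgtccccaattcc
TAP2 ISRE, chr6:32838778-32838807, minus strand: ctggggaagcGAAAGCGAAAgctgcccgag
TAP2 X2, chr6:32838757-32838786, minus strand: ctgcccgagcccTGACGCccgccctggccg
TAP1 ISRE, chr6:32853816-32853845, minus strand: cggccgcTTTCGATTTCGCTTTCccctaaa
TAPBP ISRE, chr6:33314076-33314105, minus strand: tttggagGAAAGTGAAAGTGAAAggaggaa
B2M ISRE, chr15:44711366-44711395, plus strand: actctaaGAAAAGGAAACTGAAAacgggaa

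HLA-B and HLA-C are close relatives upstream of their starts. Over the 250 bases before the start, 91.9% of aligned bases were identical. The 11-base kappa B element, GGGGA and TCCCC around any 1 base, found in 0.074% of 35116 promoters, matched in HLA-B alone among the 7 genes. HLA-C differed from it at 1 of 11 bases, C9T counted from 1 at the 5′ end of the HLA-B element. The core of the interferon-stimulated response element (ISRE), GAAA and GAAA around any 2 bases, was found in 3.57% of promoters and matched in TAP1, TAP2, TAPBP and B2M, overlapping itself in all but TAP2. In TAP1 it reads on the opposite strand, so that its capitals show the complement. The X2 motif TGACGC, bound within the NLRC5 and RFX complex, was found in 9.14% of promoters and matched in HLA-B, HLA-C and TAP2. ATTGG, the CCAAT box, matched in 5 of the 7 genes (34.6% of promoters), and the gamma-activated site TTCNNNGAA in TAP1 alone (7.66%), at its second start. Neither E2F motif, TTTCGCGC (0.515%) or TTTGGCGC (0.652%), matched in any of the 7. All motifs were searched on both strands, and a match describes letters only.

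Per unit of length, the genes kept a steep order. B2M was highest in every group, with a mean between 688 ± 11.9 TPM in shEZH2 and 963 ± 60 TPM in shE2F1 (SD, n = 2), and NLRC5 lowest, between 7.68 ± 0.905 TPM in shEZH2 and 10.6 ± 1.1 TPM in DMSO. B2M made up 49.5 to 55.3% of the summed TPM of the 9 genes in each library. HLA-B followed in control shRNA (235 ± 14.2 TPM), shEZH2 (176 ± 1.26) and GSK126 (232 ± 6.02), whereas HLA-E followed in shE2F1 (224 ± 18.1) and DMSO (190 ± 8.44). Below the heavy chains, TAPBP and TAP2 overlapped in control shRNA, and TAP1 and TAP2 overlapped in DMSO and GSK126. The other neighbours in the order did not overlap. Together the 9 genes held 0.135% of all TPM in both shEZH2 libraries, the lowest of the 10, against 0.163% and 0.166% in control shRNA and 0.177% and 0.191% in shE2F1. Of the 5 groups, shEZH2 had the lowest mean for 5 of the 9 genes in TMM-scaled CPM and for 6 in TPM.

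**Figure D1:**
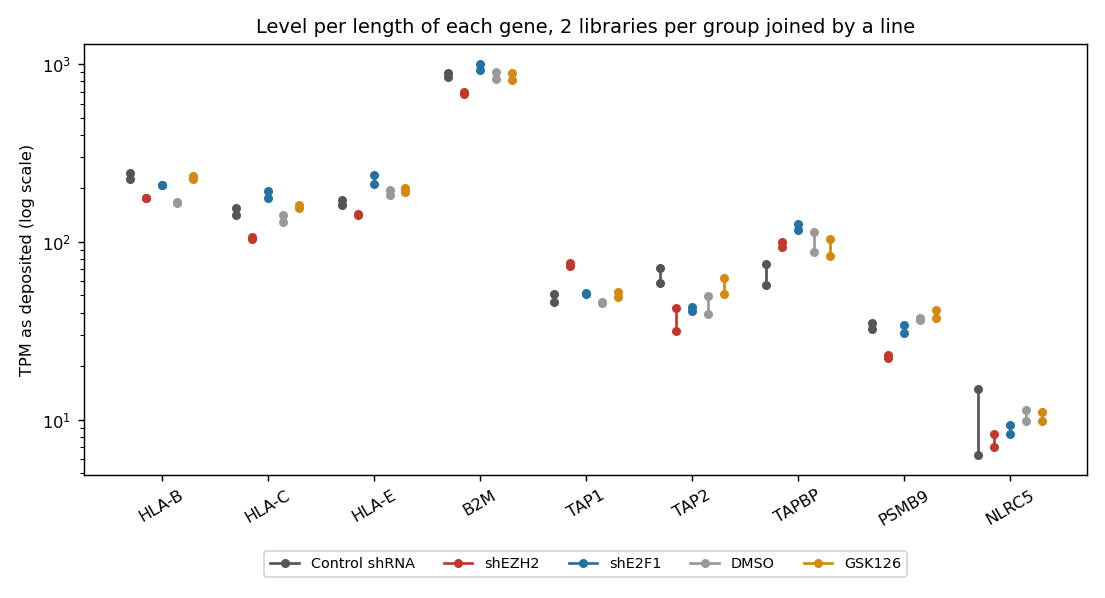
TPM as deposited (log axis) of the 9 genes, with the 2 libraries of each group as points joined by a line. B2M lies between 680 and 1006 TPM and NLRC5 between 6.31 and 14.9 TPM, and the shEZH2 points are lowest for HLA-C, HLA-E, B2M and PSMB9.

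In shEZH2 against control shRNA, the transcripts of the presenting molecule itself fell and those of parts of the loading machinery moved both ways. HLA-B, HLA-C, HLA-E, B2M, TAP2 and PSMB9 were lower, TAP1 and TAPBP were higher, and the level of NLRC5 did not separate. By edgeR's quasi-likelihood test, 6 of 9 genes fell and 2 rose with an adjusted p under 0.05, a threshold that 28.6% of 15373 genes passed downward and 27.0% upward. None changed more than 2-fold at an adjusted p under 0.01, the threshold of the study, which 10.7% of genes passed downward and 7.52% upward. The median log2 change of the 9 genes was -0.543, against -0.023 over all genes tested.

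Among HLA-B, HLA-C and HLA-E, HLA-C had the lowest fitted value, ahead of the correction for base composition given further on. HLA-C (ENSG00000204525, chromosome 6, 31268749 to 31272130) stood at 139 and 136 CPM in control shRNA and at 81.4 and 85.9 CPM in shEZH2. The groups lay far apart relative to the gaps within them, with a log2 change of -0.73 ± 0.087 (SE), an adjusted p of 5.40e-05 and a 1.66-fold lower level. HLA-B (ENSG00000234745, chromosome 6, 31353872 to 31367067), which like HLA-C presents peptides to CD8 T cells, went from 215 and 247 CPM to 150 and 156 CPM. Its change was -0.60 ± 0.095 with an adjusted p of 0.000322. HLA-E (ENSG00000204592, chromosome 6, 30489509 to 30494194), a ligand of inhibitory receptors on natural killer cells, went from 271 and 270 CPM to 205 and 206 CPM. Replicates of HLA-E were nearly equal in both groups, and its change was -0.41 ± 0.086 with an adjusted p of 0.00205.

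B2M (ENSG00000166710, chromosome 15, 44711358 to 44718851), the light chain that every class I heavy chain needs to fold and leave the endoplasmic reticulum, fell alongside them. It was at 447 and 507 CPM in control shRNA and at 323 and 338 CPM in shEZH2, a change of -0.54 ± 0.092 with an adjusted p of 0.000542. The balance of the chains hardly moved: the summed TPM of HLA-B, HLA-C and HLA-E over that of B2M was 0.652 and 0.612 in control shRNA and 0.623 and 0.61 in shEZH2, and these values overlapped.

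Both subunits of the peptide transporter moved, but in opposite directions. TAP1 (ENSG00000168394, chromosome 6, 32845209 to 32853816) rose from 72.1 and 69.9 CPM to 97.2 and 100 CPM, by 0.46 ± 0.091 on the log2 scale with an adjusted p of 0.00142. TAP2 (ENSG00000204267, chromosome 6, 32821833 to 32838739) went from 162 and 210 CPM to 116 and 89.8 CPM. Replicates of TAP2 differed more than those of TAP1 in both groups, and its change of -0.87 ± 0.144, the largest of the 9 in size, had an adjusted p of 0.000473. Both proteins form the transporter as a pair, and the ratio of TAP1 to TAP2 in TPM was 0.871 and 0.64 in control shRNA, 1.73 and 2.41 in shEZH2 and 1.27 and 1.18 in shE2F1. This ratio was chosen after the values were seen and was given no test.

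TAPBP (ENSG00000231925, chromosome 6, 33299694 to 33314284), which holds empty class I molecules at the transporter, was at 153 and 123 CPM in control shRNA and at 183 and 179 CPM in shEZH2. It rose by 0.38 ± 0.110 with an adjusted p of 0.0131, which became 0.0635 (change 0.23) without control shRNA replicate 2. PSMB9 (ENSG00000240065, chromosome 6, 32844136 to 32859851), the interferon-inducible subunit that takes the place of PSMB6, went from 19.1 and 18.5 CPM to 11.6 and 12.9 CPM. Its change was -0.63 ± 0.140 with an adjusted p of 0.00303. The annotated span of PSMB9 covers that of TAP1 on the other strand, and whether the counting used strand is not given in the sources used here. These genes moved in opposite directions, and how far they exchanged reads was not tested.

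NLRC5 (ENSG00000140853, chromosome 16, 56989485 to 57083531), the master transactivator of class I genes, gave no call in shEZH2. Its control shRNA libraries were at 22.9 and 14.3 CPM, and the shEZH2 libraries at 17.3 and 16.5 CPM lay between them. The change was -0.16 ± 0.203 with an adjusted p of 0.534. It depended on the control library: without control shRNA replicate 1 it was 0.22 (adjusted p 0.307), and without replicate 2 it was -0.45 (adjusted p 0.0351).

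**Figure D2:**
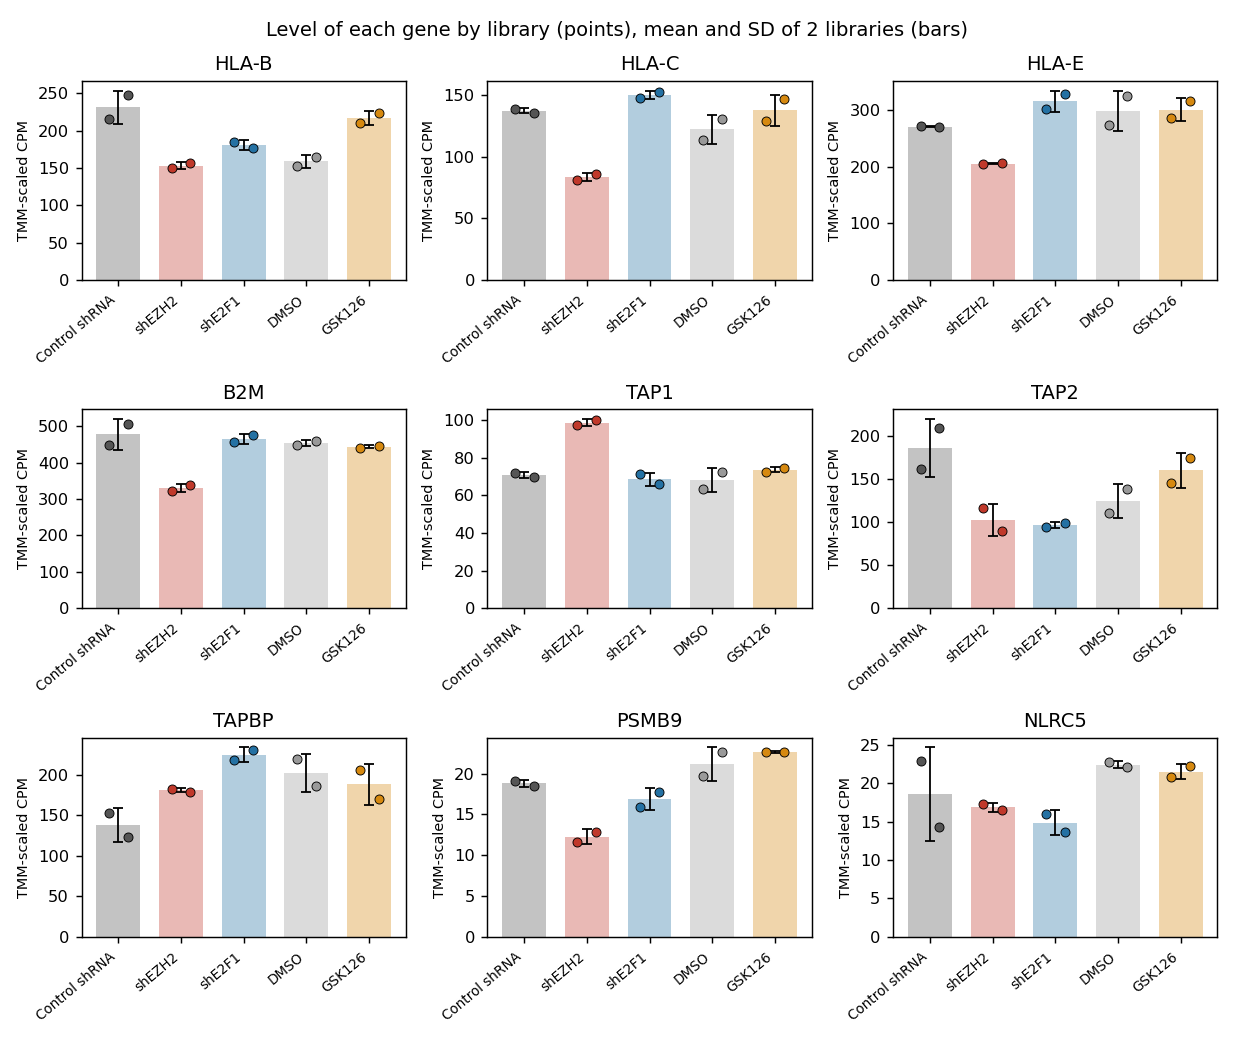
TMM-scaled CPM of each gene on axes that start at 0, with points for libraries, bars for the group mean and error bars for the SD (n = 2). HLA-C sits at 81.4 and 85.9 CPM in shEZH2, below all 8 other libraries, while TAP1 at 97.2 and 100 CPM sits above them.

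Fold changes in shEZH2 moved with GC content across genes. With genes put into 10 equal bins by GC content, the median log2 change went from 0.21 in the lowest bin to -0.51 in the highest, against 0.01 and 0.03 in shE2F1. HLA-C, whose longest transcript is 62.7% GC, ranked at percentile 93 of the genes tested, and B2M, at 38.9% GC, at percentile 12. For these values every gene is represented by its longest model, which need not be the form expressed. That of HLA-B has 3547 bases at 52.0% GC, where the mean effective length was 1373 bases. For B2M it has 2329 against 762.1 bases, for PSMB9 2676 against 826.1 and for HLA-C 1880 against 1283. GC content of the expressed forms was not tested, so that corrected changes of these genes cannot be set against each other. Once every library was corrected for base composition and transcript length, HLA-C was at -0.24 (adjusted p 0.0367) and HLA-E at -0.18 (adjusted p 0.0871), so that HLA-E lost its call. TAP1 moved to 0.76 and TAPBP to 0.61. With the longest models, HLA-B at -0.53, B2M at -0.65, TAP2 at -1.09 and PSMB9 at -0.67 kept their calls. The corrected fit left 5 genes lower and 2 higher. TAP2 then passed the 2-fold threshold of the study (adjusted p 9.80e-05), as it also did without control shRNA replicate 1 (-1.05) or shEZH2 replicate 1 (-1.07).

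The surrounding MHC region of chromosome 6 (29555629 to 33409896) shared this lean. Of 128 other genes tested there, 70 (54.7%) fell and 16 (12.5%) rose in shEZH2 by the 0.05 threshold, with a median log2 change of -0.516. Of all genes, 28.6% fell and 27.0% rose by that threshold. With the same correction, 49 (38.3%) were lower and 26 (20.3%) higher, beside 29.7% and 25.1% of all genes, with a median of -0.236, beside -0.241 for the 9 genes and -0.052 for all genes.

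Among further genes of the class I pathway, more fell than rose. Of 23 tested, 10 (43.5%) fell and 3 (13%) rose by the 0.05 threshold, beside 28.6% and 27.0% of all genes. The median was -0.353, and 4 fell past the threshold of the study, which 10.7% of all genes passed downward. HLA-F, a nonclassical heavy chain, went from 2.54 and 3 CPM to 0.527 and 0.345 CPM, a change of -2.69 ± 0.409 with an adjusted p of 0.000267. That change rests on few counts, 48 and 50 in control shRNA and 7 and 6 in shEZH2. How far HLA-F shares reads with other genes was not tested. PSMB10, the immunoproteasome subunit that takes the place of PSMB7, fell from 20.2 and 15.8 CPM to 6.02 and 6.91 CPM, by 1.48 ± 0.172 on the log2 scale with an adjusted p of 4.42e-05. HFE, a class I-like protein that controls iron uptake, fell by 1.26 ± 0.198 with an adjusted p of 0.000342. The fourth, named after its value was seen, was PSME3, a proteasome activator that is not induced by interferon, at -1.23 ± 0.102. With the correction for base composition and length, PSMB10 was at -1.03, HLA-F at -2.37 and HFE at -1.49.

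Beside their constitutive counterparts, 2 of the 3 immunoproteasome subunits were lower in shEZH2. The ratio of PSMB9 to PSMB6 in TPM was 0.119 and 0.109 in control shRNA and 0.0661 and 0.0625 in shEZH2, that is 0.563 of the control mean. PSMB10 over PSMB7 was at 0.106 and 0.0777 in control shRNA and at 0.0219 and 0.0249 in shEZH2, where PSMB7 also rose, by 0.41 ± 0.098. PSMB8 over PSMB5 did not follow, with 0.279 and 0.252 in control shRNA and 0.31 and 0.304 in shEZH2. In that pair, PSMB5 fell by 0.47 ± 0.098 (adjusted p 0.00204) and PSMB8 was at -0.23 ± 0.097 (adjusted p 0.0702). No ratio was tested or corrected for base composition.

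**Figure D3:**
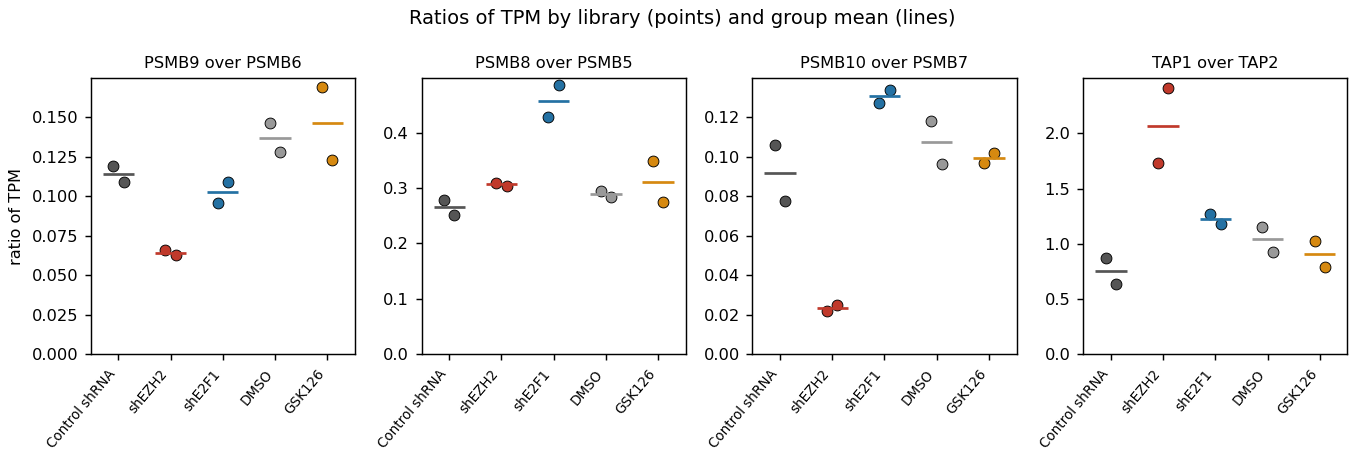
Ratios of TPM per library (points) with the group mean (lines), on axes that start at 0, for the 3 pairs of immunoproteasome and constitutive subunits and for TAP1 over TAP2. PSMB10 over PSMB7 is at 0.0219 and 0.0249 in shEZH2 and at 0.0777 or more in the other 8 libraries.

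Regulators of the pathway did not move as 1 group. Of 15 tested in shEZH2, 8 (53.3%) rose and 4 (26.7%) fell by the 0.05 threshold, with a median of 0.396. Of all genes, 27.0% rose and 28.6% fell by that threshold. IRF1, which binds the interferon-stimulated element, was at 0.08 ± 0.158 with an adjusted p of 0.672. Of the RFX complex, which binds the X box of class I and class II promoters, 2 subunits fell. RFX5 went from 59.3 and 58.8 CPM to 31.2 and 29 CPM, a change of -0.99 ± 0.10 with an adjusted p of 2.01e-05, and RFXANK from 38.8 and 36 CPM to 18.1 and 15.8 CPM, a change of -1.15 ± 0.126 with an adjusted p of 3.13e-05. With the correction for base composition and length, RFXANK was at -0.71 (adjusted p 0.000417). RFXAP, the remaining subunit, rose by 0.87 ± 0.296 (adjusted p 0.0274) and was named after its value was seen. Of the interferons, IFNB1, IFNG, IFNL2, IFNE and IFNK had 0 counts in all 10 libraries, IFNL3 had 1 count in a single library and IFNL1 at most 6 counts, and a count of 0 allows up to 0.227 CPM in the shallowest of them, for counting error only.

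Class II genes, which present extracellular peptides and share the RFX complex with class I, were lower to a larger extent. Of 9 tested in shEZH2, 7 (77.8%) were lower and 1 (11.1%) higher by the 0.05 threshold, beside 28.6% and 27.0% of all genes. Their median was -1.094. HLA-DMB, which edits class II peptides, was at -1.59 ± 0.428, HLA-DRA, the alpha chain of the DR molecule, at -1.32 ± 0.225, and their transactivator CIITA at -1.10 ± 0.284, with adjusted p of 0.00867, 0.000571 and 0.00696. CIITA was at 23.9 and 12.9 CPM in control shRNA and at 9.79 and 7.65 CPM in shEZH2, and its change ran from -1.47 to -0.59 when single libraries were left out. The exception, HLA-DOB, which restrains HLA-DM, rose by 2.01 ± 0.405 and was singled out after its value was seen.

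In shE2F1, most parts of the presenting molecule gave no call, while TAP2 fell and TAPBP rose. An adjusted p of 0.05 was passed by 3 of the 9 genes, 2 lower and 1 higher, where 23.7% of genes passed downward and 21.1% upward. None reached the threshold of the study, which 5.96% of genes passed downward and 5.60% upward. The median of the 9 was -0.058. This comparison and the preceding one share the control shRNA libraries.

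TAP2 was at 94.8 and 99.3 CPM in shE2F1, far below 162 and 210 CPM in control shRNA. It fell by 0.95 ± 0.143 with an adjusted p of 0.000382. TAPBP was at 218 and 231 CPM, above both control libraries, and rose by 0.69 ± 0.109 with an adjusted p of 0.000491. HLA-B was at 185 and 176 CPM and its change of -0.36 ± 0.094 had an adjusted p of 0.00959. That call rested on few libraries: without control shRNA replicate 2 it was -0.25 (adjusted p 0.0511), and without shE2F1 replicate 1 or 2 its adjusted p was 0.0555 or 0.107.

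HLA-C at 148 and 153 CPM and HLA-E at 302 and 328 CPM lay above their controls in both libraries without a call, with changes of 0.12 ± 0.085 (adjusted p 0.277) and 0.21 ± 0.085 (adjusted p 0.0658). HLA-E passed 0.05 under DESeq2 (0.0461) and with the correction for base composition and length (0.0331). B2M at 455 and 475 CPM and TAP1 at 71.1 and 66 CPM overlapped their controls, at -0.05 ± 0.091 and -0.06 ± 0.091. PSMB9 at 15.9 and 17.8 CPM was at -0.17 ± 0.135 (adjusted p 0.335), and NLRC5 at 16 and 13.7 CPM at -0.33 ± 0.201 (adjusted p 0.202), which became -0.62 (adjusted p 0.0103) without control shRNA replicate 2 and 0.05 without replicate 1.

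Around these genes, shE2F1 left a mixed picture. In the MHC region 34 genes (26.6%) were lower and 32 (25%) higher of 128 by the 0.05 threshold, with a median of -0.090. Of all genes, 23.7% were lower and 21.1% higher by that threshold, close to the shares in this region. Of the other class I pathway genes 9 of 23 (39.1%) were lower and 2 higher, with a median of -0.206, and MR1, which presents microbial vitamin metabolites, rose from 7.36 and 4.5 CPM to 18 and 17.9 CPM, by 1.58 ± 0.220 with an adjusted p of 0.000224. PSMB8 over PSMB5 was at 0.428 and 0.486, above all other libraries, with PSMB8 at -0.21 ± 0.096 (adjusted p 0.105) and PSMB5 at -0.97 ± 0.099 (adjusted p 2.86e-05). Of the regulators 3 (20%) were higher and 4 (26.7%) lower of 15, also close to the shares of all genes. IRF1 was at -0.43 ± 0.159 (adjusted p 0.0458) and RFX5 at -0.23 ± 0.096 (0.0731). The IRF1 call was lost with the correction for base composition and length, at -0.34 (adjusted p 0.0806), and its change was -0.16 without control shRNA replicate 1 and -0.66 without replicate 2. It was also lost without control shRNA replicate 1 or without either shE2F1 library.

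Class II genes were lower in shE2F1 too, with 6 of 9 (66.7%) past an adjusted p of 0.05, none higher, and a median of -1.116. Of all genes, 23.7% passed it downward and 21.1% upward. CIITA was at 2.87 and 4.26 CPM, a change of -2.39 ± 0.305 with an adjusted p of 0.000123. HLA-DRA was at 3.16 and 3.45 CPM, a change of -1.73 ± 0.226 (adjusted p 0.000143), and CD74, the chaperone of class II molecules, at 65.9 and 75.5 CPM against 166 and 138 CPM in control shRNA, a change of -1.12 ± 0.118 (adjusted p 3.62e-05).

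**Figure D4:**
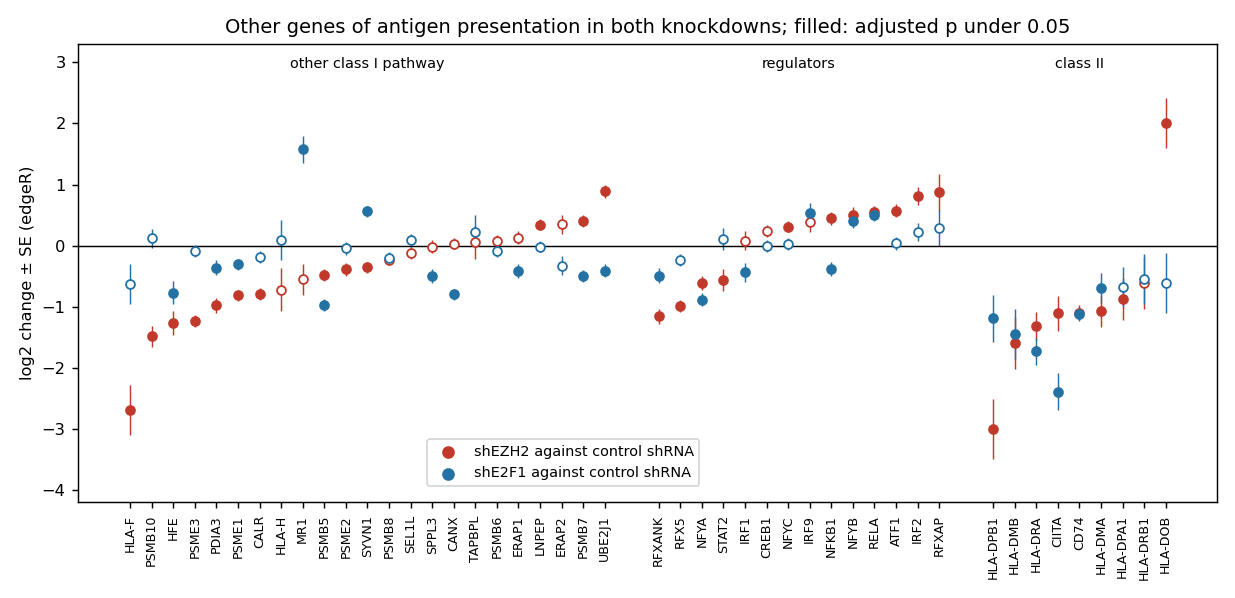
log2 change ± SE against control shRNA of the other class I pathway genes, regulators and the class II genes tested in shEZH2 (red) and shE2F1 (blue), ordered within each list by the change in shEZH2, with filled points at an adjusted p under 0.05. HLA-F at -2.69 and PSMB10 at -1.48 in shEZH2, MR1 at 1.58 and CIITA at -2.39 in shE2F1 stand out. HLA-F had only 7 and 6 counts in the shEZH2 libraries.

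Tested directly against each other, both knockdowns differed in most of the 9 genes. An adjusted p of 0.05 was passed by 7 between shEZH2 and shE2F1, 1 higher and 6 lower, beside 29.7% of all genes upward and 30.6% downward. TAP1 was higher in shEZH2, by 0.52 ± 0.091 with an adjusted p of 0.000553. HLA-C was lower by a log2 change of -0.85 ± 0.087 (1.30e-05), HLA-E at -0.62 ± 0.086 (0.000107), B2M at -0.50 ± 0.092 (0.000806), PSMB9 at -0.46 ± 0.140 (0.0152), TAPBP at -0.32 ± 0.109 (0.027) and HLA-B at -0.24 ± 0.094 (0.0446), with adjusted p in parentheses. The last 3 did not hold in every fit, since without shEZH2 replicate 1, or without shE2F1 replicate 2, only HLA-C, HLA-E, B2M and TAP1 passed. With the correction for base composition and length, HLA-C was at -0.32 (adjusted p 0.00835), HLA-B at -0.22 (0.0572) and TAPBP at -0.18 (0.108). TAP2, at 0.08 ± 0.144 (adjusted p 0.663), and NLRC5, at 0.18 ± 0.204 (0.477), did not separate the knockdowns. Of the regulators, IRF1 was higher in shEZH2 by 0.52 ± 0.159 (0.016) and RFX5 lower at -0.755 ± 0.10 (8.00e-05).

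In the fit without a replicate term, GSK126 left the class I genes without a call. No gene of 14632 passed an adjusted p of 0.05 against DMSO by edgeR (0%), and 577 genes (3.94%), HLA-B among them as the 1 member, had an unadjusted p under 0.05. DESeq2 called 11 genes, none of the 9. With a replicate term added to the edgeR fit, HLA-B, HLA-C, TAP2 and TAPBP did pass 0.05, as given with its limits further on. Drug libraries with the same replicate number deviated together (r = 0.66). The median of the 9 genes was 0.102, against -0.005 over all genes.

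HLA-B and TAP2 nevertheless had both GSK126 libraries above both DMSO libraries. HLA-B was at 153 and 165 CPM in DMSO and at 210 and 223 CPM in GSK126, a change of 0.44 ± 0.106 with an unadjusted p of 0.00513 and an adjusted p of 0.929. TAP2 was at 111 and 139 CPM in DMSO and at 146 and 175 CPM in GSK126, a change of 0.36 ± 0.151. Within replicate numbers 1 and 2, the log2 ratios were 0.460 and 0.430 for HLA-B and 0.392 and 0.333 for TAP2. HLA-C, at 114 and 131 CPM in DMSO and at 129 and 147 CPM in GSK126, overlapped between the groups, with 0.186 and 0.170 within the numbers.

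The remaining 6 genes had changes between -0.11 for TAPBP and 0.11 for TAP1. PSMB9 was at 19.7 and 22.6 CPM in DMSO and at 22.6 and 22.7 CPM in GSK126, and B2M at 447 and 459 CPM and at 440 and 446 CPM, which did not overlap but differed 1.02-fold. HLA-E was at 274 and 324 CPM in DMSO and at 286 and 315 CPM in GSK126, TAP1 at 63.5 and 72.6 and at 72.6 and 74.7, TAPBP at 219 and 186 and at 206 and 170, and NLRC5 at 22.8 and 22.1 and at 20.8 and 22.2. In all, 3 of the 9 did not overlap and were higher in GSK126 and 1 was lower, where 15.2% and 13.2% of all genes behaved so. The 3 were HLA-B, TAP2 and PSMB9, and the closest PSMB9 libraries of both groups were equal to the digits given, at 22.6 CPM. The summed heavy chains over B2M, in TPM, were 0.538 and 0.609 in DMSO and 0.651 and 0.723 in GSK126. Class II genes had a median of 0.545, with 8 of 10 higher without overlap and none past an adjusted p of 0.05.

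**Figure D5:**
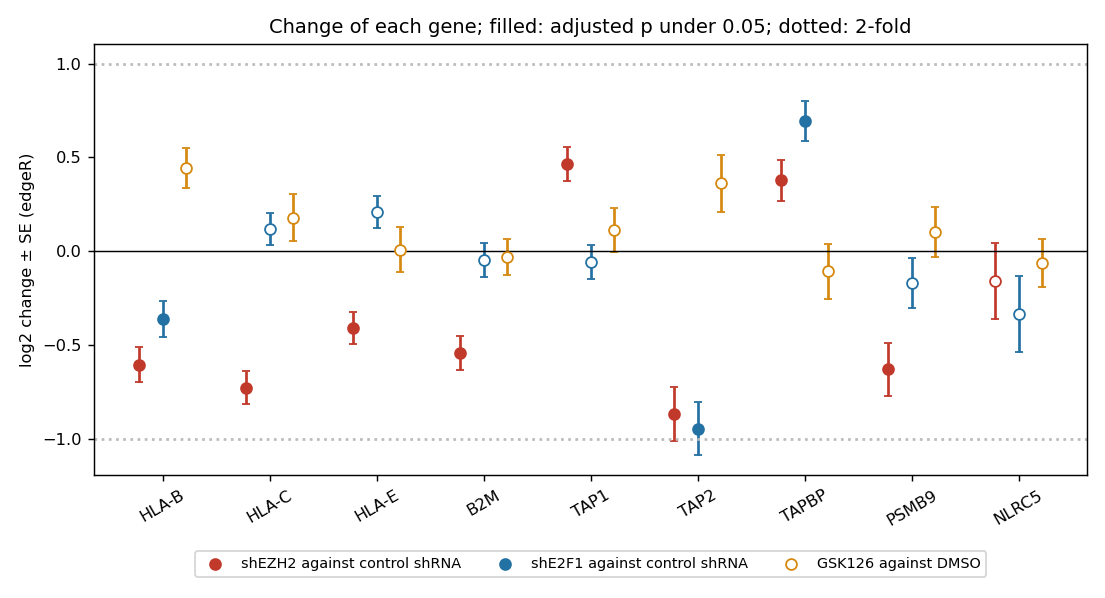
log2 change ± SE of each gene by edgeR in shEZH2 (red), shE2F1 (blue) and GSK126 (orange) against their own controls, with filled points at an adjusted p under 0.05 and dotted lines at a 2-fold change. All shEZH2 points but NLRC5 are filled, 3 shE2F1 points are filled and no GSK126 point is.

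Loss of EZH2 and inhibition of its enzyme activity were then compared through the difference of both changes, tested in 1 fit of all 10 libraries. HLA-B and TAP2 differed most among the 9, with shEZH2 minus GSK126 differences of -1.04 ± 0.149 and -1.22 ± 0.232 and adjusted p of 0.000334 and 0.00177, and both passed the 2-fold threshold of the study, as 8.67% of genes did downward and 5.13% upward. HLA-B fell short of 2-fold without control shRNA replicate 2 (-0.94), DMSO replicate 1 (-0.99) or GSK126 replicate 2 (-0.999) and with the correction for base composition and length (-0.94), and TAP2 had an adjusted p of 0.0124 without shEZH2 replicate 2 and of 0.01 without control shRNA replicate 2. A lower change in shEZH2 with an adjusted p under 0.05 was found for 5 of the 9 and a higher one for none, where 19.7% and 16.9% of 15773 genes did. HLA-C (-0.89 ± 0.156, adjusted p 0.00103), PSMB9 (-0.72 ± 0.193, 0.0121) and B2M (-0.50 ± 0.140, 0.015) were the others. HLA-E at -0.41 ± 0.154 (0.0557), TAPBP at 0.50 ± 0.190 (0.0577) and TAP1 at 0.36 ± 0.150 (0.0776) missed the threshold, and NLRC5 was at -0.08 ± 0.265 (0.834). This fit had no replicate term. With that term added, more of the 9 genes passed 0.05, as given with its limits further on. With the correction for base composition and length, the differences were -0.42 for HLA-C (0.0137), -0.16 for HLA-E (0.294), 0.67 for TAP1 (0.000802) and 0.73 for TAPBP (0.00829), so that TAP1 and TAPBP passed as higher in shEZH2. The difference sets a hairpin experiment with viral transduction and puromycin beside a drug experiment without either, so that knockdown and these treatments cannot be told apart beyond what each control removes.

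Assignment of reads limits some of these levels. Of the 50-base stretches in the transcripts of HLA-B, 30.5% also occur in another annotated gene, 27.9% in the pseudogene DHFRP2, and of those of TAP2 18.5% occur in an overlapping annotated gene. HLA-C and HLA-E shared 5.46% and 5.19%, TAPBP 5.72% (spread over 690 other genes), PSMB9 2.66%, TAP1 0.851% and B2M and NLRC5 none. The posterior SD that RSEM gave was at most 0.145% of the count for HLA-B, 0.301% for HLA-C and 1.59% for TAP2. These values describe the reference transcripts, and how far reads from the HLA alleles of the line were placed on them was not tested.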

How the data were processed

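RNA-seq of MDA-MB-231 cells comprised 18 sample records, of which 8 repeated another value for value, leaving 10 libraries. Groups came from the labels. The members and gene lists were chosen with earlier results of these data known. Per the submitters' processing notes, the authors used STAR 2.7.2b and RSEM 1.3.1 on GRCh38/hg38, with strand-specific poly(A) libraries; whether counting used strand is not given in the sources used here. The deposited files hold RSEM expected counts, in which the authors divide reads shared between genes, and TPM, which the authors scaled by effective length and library. TPM was used only for levels and sums of genes, within and between groups, and for ratios, without a test.

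Expected counts were rounded and fitted with edgeR 4.0.16 in R 4.3.3 (filterByExpr, TMM, glmQLFit and glmQLFTest), and p-values were adjusted by Benjamini and Hochberg across the genes of each fit. The 6 knockdown libraries formed 1 fit, the 4 drug libraries a separate one, and all 10 another for the difference of both effects. All tests were two-sided, and scripts were tested on simulated counts. Alternatives were DESeq2 1.42.0, other size factors, other low-count filters, a correction for GC content and length by splines (5 degrees of freedom), a replicate block, other sets of libraries in the fit, each library left out, and TPM or CPM in place of the other.

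Named beyond the members were EZH2, E2F1, IRF1 and RFX5, the proteasome subunits of the ratios, up to 3 genes per list and direction with the largest calls in each knockdown and a mean of at least 20 counts, and the 5 genes most like the mean of the members. Some items of these lists are counted but not reported by name here. Gene positions are from GENCODE release 44, where 62625 of 62703 identifiers were found, and promoters from RefSeq (GRCh38.p14). Depth limits what a count of 0 excludes to 3 counts, 0.150 to 0.227 CPM per library.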

Additional observations from a re-analysis of the deposited data

Results flagged for a closer look

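For 5 of the 9 class I genes, the change in shEZH2 differed from the change under GSK126 by the test of the difference itself (edgeR, all 10 libraries, adjusted p under 0.05). All 5 were lower in shEZH2, where 19.7% of 15773 genes passed downward and 16.9% upward. This fit had no replicate term, and more of the 9 genes passed with that term added, as given in the next section. The log2 differences, shEZH2 minus GSK126, were -1.22 for TAP2 (adjusted p 0.00177), -1.04 for HLA-B (0.000334), -0.89 for HLA-C (0.00103), -0.72 for PSMB9 (0.0121) and -0.50 for B2M (0.015). Among the regulators, RFX5 differed by -0.92 (adjusted p 0.000684). With 2 libraries per group, no group was large enough for a check for single outlying libraries.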

How the results depend on the processing

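The counts of genes past an adjusted p of 0.05 without a fold requirement were 8550 in shEZH2, 6879 in shE2F1, 9267 between both knockdowns and 5780 for the difference between shEZH2 and GSK126. Counts of all genes further on in this section use the threshold of the study, an adjusted p under 0.01 and more than 2-fold. For GSK126, DESeq2 called 11 genes where edgeR called 0, and leaving out single libraries gave 37 to 43, with the lone library of a group assumed to vary like the others. Leaving out single libraries gave 4 to 7 members past 0.05 between both knockdowns, and 1305 (without shEZH2 replicate 2) to 2414 genes for the difference between shEZH2 and GSK126. In CPM, the shEZH2 to control quotient was 0.610 for PSMB9 over PSMB6, 1.18 for PSMB8 over PSMB5 and 0.997 for the heavy chains over B2M, against 0.563, 1.16 and 0.975 in TPM.

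Drug libraries with the same replicate number deviated together (r = 0.66 over 11919 genes), against 0.04 to 0.20 among the knockdown groups, but the labels do not say what a number stands for and there were only 2 pairs. With the replicate block, 68 genes passed the threshold of the study for GSK126, or 53 with the GC content and length correction added. By the looser threshold of 0.05 with no fold requirement, 4 members passed in both (HLA-B, HLA-C, TAP2 and TAPBP). The share of all genes past 0.05 with the block is not given here, so that the count of members has no background. For the difference between shEZH2 and GSK126, 8 members passed 0.05 with the block, again without that share. The block alone ended no call of a named gene in the knockdowns and changed no other call but those of the members gained here.

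Some signs turned. The GC content and length correction, without and with the block, put TAP2 between the knockdowns at -0.1884 and -0.1876, NLRC5 in the difference between shEZH2 and GSK126 at 0.0364 and 0.0598, and HLA-E under GSK126 at -0.0036 and -0.0035, where no low-count filter gave -0.0060. Without single libraries, ranges spanned 0 in shEZH2 for NLRC5 (-0.45 to 0.22) and IRF1 (-0.14 to 0.36), in shE2F1 for B2M (-0.14 to 0.0531) and NLRC5 (-0.62 to 0.0459), and between the knockdowns for TAP2 (-0.12 to 0.26). The same held under GSK126 for HLA-E (-0.0945 to 0.12), TAPBP (-0.25 to 0.034), IRF1 (-0.0034 to 0.12) and RFX5 (-0.0979 to 0.0012), and in the difference between shEZH2 and GSK126 for NLRC5 (-0.38 to 0.29) and IRF1 (-0.20 to 0.31). The cause was not tested. With 2 libraries per group, the spread of single genes rests largely on the estimate shared across genes.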

Other observations

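Over the 10 libraries, the 9 genes did not vary as 1 unit. The log2 CPM of PSMB9 had a Pearson r of 0.95 with the mean of the standardised values of the 9, HLA-C 0.87, HLA-E 0.86 and B2M 0.83, whereas TAP1 was at -0.75 and TAPBP at -0.09. Among 11546 other genes with a mean of at least 50 counts, those closest to that mean were MAN2C1 (r = 0.978), an alpha-mannosidase, ADGRB2 (0.972), an adhesion G protein-coupled receptor, RNF123 (0.97), a ubiquitin ligase, MSRB2 (0.969), a methionine sulfoxide reductase, and PLK2 (0.968), a kinase. The 10 points share 5 groups of 2 libraries, so these values describe likeness across groups.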
